A study of Mus musculus with 9 samples.

Results

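CC chemokines are small secreted proteins that recruit leukocytes, and 8 of their genes were described here in RAW264.7 cells: Ccl2, Ccl3, Ccl4, Ccl5, Ccl6, Ccl7, Ccl9 and Ccl22. The genes were taken by symbol from a table of 54532 mouse genes. Of the 8 genes, 7 were among the 11585 genes that reached 1 FPKM (fragments per kilobase of gene length, scaled to a library size) in at least 3 libraries and so were tested. Ccl6 did not reach that level in any library. Ccl3, Ccl4 and Ccl9 reached it in all 9 libraries, while Ccl2, Ccl5, Ccl7 and Ccl22 reached it only in cells given LPS. Those 4 genes therefore had to be higher in LPS-treated cells than in control cells in order to be tested, and a count over the tested genes is no support for a rise with LPS.

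RNA was sequenced from 3 groups of 3 libraries of RAW264.7, a transformed mouse macrophage line derived from ascites and labelled wild type. The control group was untreated, the LPS group received lipopolysaccharide, a component of the Gram-negative bacterial outer membrane, at 1 μg/ml for 6 h, and the LPS + G-CDs group received the same LPS together with 400 μg/ml of G-CDs, carbon dots prepared from Glycyrrhiza. The titles of the last group name the carbon dots, while its treatment label gives LPS only. No library of cells given G-CDs without LPS was analysed here, and nothing in the labels says that the 3 libraries of a group came from separate cultures, so p-values measure only the spread between these libraries.

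Each library held 14752400 to 17312255 reads on genes. The library size that the FPKM values imply was 1.108 to 1.14 times these reads in control, 0.929 to 0.936 times in LPS and 0.88 to 0.98 times in LPS + G-CDs libraries, and how it was set is not given in the sources used here. The LPS libraries were close to each other, with a median SD of 0.087 on the log2 scale across the tested genes, against 0.244 for control libraries and 0.259 for those with G-CDs. Within the LPS + G-CDs group, the shortest 20% of genes by length lay 0.26 below the group mean in replicate 1 and 0.304 above it in replicate 3, as medians on the log2 scale, and the longest 20% lay 0.264 above and 0.257 below. Short transcripts include several of the chemokines, so the changes of the members with G-CDs are also given with this trend removed where it alters them. Of 9 macrophage markers, 8 reached 1 FPKM, and Mertk was at 0 reads in every library. Summed macrophage marker levels were 2240 to 3170 FPKM in control, 1650 to 1720 in LPS and 1300 to 1930 in LPS + G-CDs libraries, with Lyz2, Csf1r and Cd68 as the highest markers. Adgre1, Ptprc and Itgam were lower with G-CDs than with LPS without overlap, at 62.7%, 67.2% and 72.8% of the LPS mean. They did not pass the adjusted threshold (adjusted p = 0.13, 0.3 and 0.32, limma). Lyz2, Csf1r, Cd68, Fcgr1 and Spi1 overlapped, at 85.6%, 108%, 105%, 123% and 114%. Here and below, the share of all tested genes without overlap between LPS + G-CDs and LPS libraries was not counted. The part of the macrophage markers in the chemokine results was not tested. None of the listed T cell, B cell, dendritic cell, fibroblast, epithelial or endothelial markers reached 1 FPKM. Among 5 neutrophil markers only S100a8 did, at most 2.15 FPKM, with Ly6g, Mpo and Elane at 0. S100a8 was higher with G-CDs than with LPS without overlap, with means of 0.448 and 1.36 FPKM on 13 and 42 reads per group. The summed neutrophil marker level was 0.154 to 0.592 FPKM in control, 0.198 to 0.73 in LPS and 0.797 to 2.15 in LPS + G-CDs libraries, and its part in the results was not tested.

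Chemokine genes of this family are induced in macrophages when Toll-like receptor 4 binds LPS and signals through MyD88 and TRIF to NF-κB, AP-1 and interferon regulatory factors. The secreted ligands bind G protein-coupled receptors on other leukocytes. Ccl3, Ccl4 and Ccl5 draw in monocytes and T cells, Ccl6 and Ccl9 are rodent ligands of Ccr1, Ccl2 and Ccl7 recruit monocytes through Ccr2, and Ccl22 attracts regulatory and type 2 helper T cells through Ccr4.

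In the GRCm38 build given in the submitters' processing notes, 7 of the 8 genes lie on chromosome 11, in a pair of groups. Ccl2 (chr11:82035571-82037453) and Ccl7 (chr11:82045712-82047525) stand next to each other on the plus strand. Ccl5 (chr11:83525778-83530518), Ccl9 (chr11:83572919-83578636), Ccl6 (chr11:83587882-83593087) and Ccl3 (chr11:83647844-83649355) lie on the minus strand and Ccl4 (chr11:83662584-83664683) on the plus strand, all within 139 kb. Ccl22 (chr8:94745590-94751699, plus strand) lies on chromosome 8, in a 66.4 kb stretch that ends with Ccl17, which encodes the other ligand of Ccr4. The proximal promoters of Ccl22, Ccl9 and Ccl3 are shown because the levels of these genes are set against each other within libraries in the results. Each window is 120 bases of RefSeq sequence on GRCm38.p6 and is written 5′ to 3′ on the gene's strand. The windows are chr8:94745470-94745589 for Ccl22, whose end lies 94 bases before the RefSeq start, and chr11:83578637-83578756 for Ccl9 and chr11:83649379-83649498 for Ccl3, which end at the RefSeq start. Capitals mark, in order along Ccl9, the letters of a TATA box, an AP-1 motif and the NF-κB consensus. TATAAA was sought on either strand, and the matches on both strands overlap. The AP-1 motif was sought as TGANTCA, with N any base, and the NF-κB consensus matched on the opposite strand.
Ccl22: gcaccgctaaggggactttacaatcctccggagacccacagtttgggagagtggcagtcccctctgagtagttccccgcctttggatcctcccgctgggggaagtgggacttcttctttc
Ccl9: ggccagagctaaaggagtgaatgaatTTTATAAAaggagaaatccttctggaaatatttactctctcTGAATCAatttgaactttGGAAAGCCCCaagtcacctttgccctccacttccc
Ccl3: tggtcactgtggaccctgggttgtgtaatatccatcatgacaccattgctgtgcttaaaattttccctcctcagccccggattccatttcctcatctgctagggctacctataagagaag

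The TATA box letters marked in Ccl9 start 94 bases, its AP-1 motif 53 bases and its NF-κB consensus 35 bases before the RefSeq start. Whether these letters are used was not tested. Both strands of the 250 bases before the start were searched. Among 32851 RefSeq promoters of that length, 7.25% held the NF-κB consensus, 6.75% the AP-1 motif, 12.4% the TATA box and 2.98% an interferon response element (GAAA, any 2 bases, then GAAA). Ccl3, Ccl6 and Ccl22, the other genes with a promoter entry, held none of these letters in the window, and Ccl9 held no interferon response element.

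LPS raised the level of each of the 7 tested chemokine genes. Ccl3 and Ccl4 had the highest FPKM of the listed CC ligand genes in LPS-treated cells. Ccl5 and Ccl22 rose from under 1 FPKM in control to means of 594 and 122.8 FPKM, respectively. Among all tested genes 15.8% were higher in LPS than in control libraries and 15.6% were lower by the same test, limma on log2(FPKM + 1) with Benjamini-Hochberg adjustment and a threshold of 0.05. Rescaling every library to a common FPKM sum moved the median of all genes to -0.21 and the higher share of the calls from 50.3% to 24.6%, with the same 7 genes still higher.

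Ccl3, which encodes macrophage inflammatory protein 1 alpha, stood at 21.0, 57.0 and 62.0 FPKM in the control libraries, 10192, 12010 and 10923 FPKM in the LPS libraries, and 10325, 12977 and 15063 FPKM in the LPS + G-CDs libraries. Every LPS library was far above every control library. The mean ratio of LPS to control was 236, with a log2 fold change of 7.995 (SE 0.39, adjusted p = 9.5e-07, limma).

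Ccl4, the gene of macrophage inflammatory protein 1 beta, gave 16.3, 18.4 and 23.5 FPKM in control, 2953, 2998 and 2869 in LPS, and 2910, 3970 and 5939 in LPS + G-CDs libraries. The control and LPS libraries did not overlap, and the LPS libraries had a mean of 2940 ± 65.5 FPKM (SD, n = 3). LPS raised Ccl4 151-fold on average, by a log2 fold change of 7.19 (SE 0.26, adjusted p = 1.7e-07, limma).

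Ccl5, known as RANTES, was at 0.222, 0.489 and 0.526 FPKM in control, at 619, 603 and 560.1 in LPS, and at 606, 708 and 1195 in LPS + G-CDs libraries. Control values rested on 4, 8 and 9 reads. Its ratio of LPS to control means was 1440. Its log2 fold change was 8.72 (SE 0.24, adjusted p = 2.6e-08, limma), on a scale that understates the change of low genes.

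Ccl9 was already present in control cells, at 21.5, 23.4 and 30.5 FPKM, close to Ccl4. It rose to 463, 481 and 453 FPKM with LPS and stood at 338, 387 and 466 FPKM with LPS + G-CDs. The 18.5-fold rise with LPS was the smallest among the members above 10 FPKM in LPS libraries (log2 fold change 4.17, SE 0.17, adjusted p = 3.8e-07, limma). Ccl6, the neighbouring Ccr1 ligand, remained low throughout, at 0, 0.0982 and 0.156 FPKM in control, 0.363, 0.444 and 0.460 in LPS, and 0.116, 0.268 and 0.119 in LPS + G-CDs libraries. These values rest on at most 12 reads per library, and Ccl6 was not tested.

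Ccl2 and Ccl7, the Ccr2 ligands, were nearly silent in control cells. Ccl2, also called monocyte chemoattractant protein 1, had 1, 2 and 1 reads there, equal to 0.0468, 0.103 and 0.0493 FPKM, and reached 39.5, 43.5 and 45.4 FPKM with LPS. From the reads the ratio was 653 (exact 95% interval 255 to 2400, counting error only), and the log2 fold change was 5.36 (SE 0.19, adjusted p = 1.6e-07, limma), a scale that understates the change of low genes. Ccl7 had 0 reads in each control library, and 22, 16 and 30 reads, or 1.99, 1.45 and 2.58 FPKM, in the LPS libraries. Against a floor of 3 reads over the control group, it was at least 28.8-fold higher with LPS (limma adjusted p = 0.00058).

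Ccl22, which encodes macrophage-derived chemokine, stood at 0.275, 0.152 and 0.242 FPKM in control and 124, 125 and 120.3 FPKM in LPS libraries, a mean ratio of 551. The 3 LPS libraries differed by an SD of only 2.21 FPKM. Control values rested on 12, 6 and 10 reads. The log2 fold change was 6.66 (SE 0.12, adjusted p = 4.2e-09, limma), on the scale that understates the change of low genes.

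**Figure D1:**
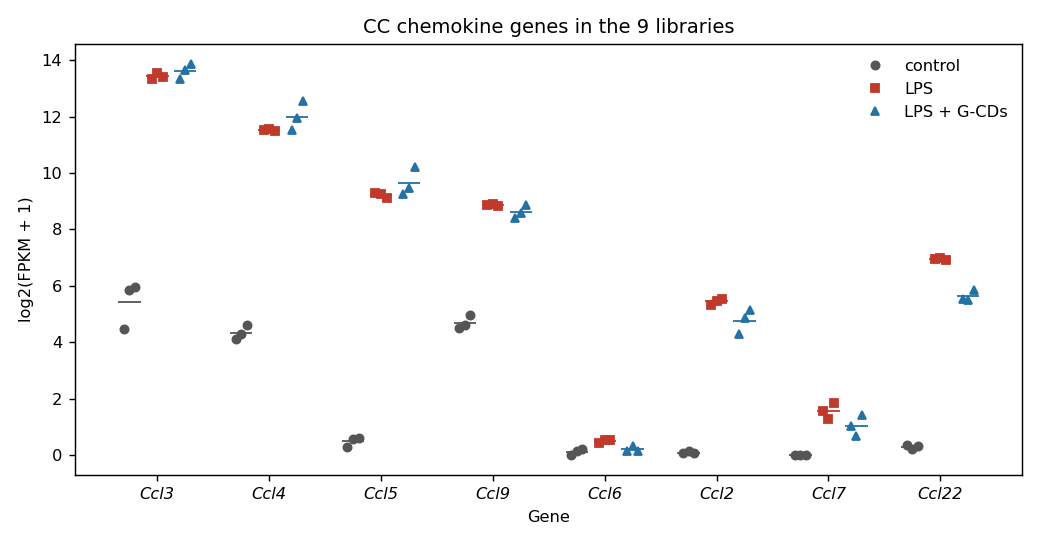
Level of the 8 chemokine genes in the 9 libraries as log2(FPKM + 1), with each point a library and a line at the group mean. Ccl3 and Ccl4 sit highest in LPS-treated cells, Ccl6 lies under 1 FPKM in every library, and the 3 LPS + G-CDs libraries of Ccl22 (45.2, 44.8 and 57.4 FPKM) lie below the 3 LPS libraries.

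Among the chemokine genes, only Ccl22 passed the test between LPS + G-CDs and LPS libraries. Its mean level fell to 40.0% of that in LPS-treated cells, while Ccl3, Ccl4 and Ccl5 gave means of 116%, 145% and 141% with values that overlapped those of the LPS libraries. Of the 7 tested genes, 1 was called lower (Ccl22) and 0 higher in LPS + G-CDs than in LPS libraries, against 0.242% lower and 0.25% higher among all tested genes. By the thresholds of the study, a p under 0.01 and a change over 1.5-fold, applied here to the unadjusted limma p, Ccl22 and Ccl2 were lower, against 1.24% of all tested genes. At an unadjusted p under 0.05, 3 of the 7 genes passed (limma), namely Ccl22, Ccl2 and Ccl7, against 15.2% of all tested genes. The median log2 fold change of the 7 genes was -0.24, against 0.017 for all tested genes. In these bulk samples, fewer cells producing a transcript and less of it per cell cannot be told apart.

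Ccl22 stood at 45.2, 44.8 and 57.4 FPKM in the LPS + G-CDs libraries, each below the lowest LPS library at 120.3. Means were 122.8 ± 2.21 FPKM with LPS and 49.1 ± 7.17 FPKM when G-CDs were added (SD, n = 3). The log2 fold change was -1.31 (SE 0.12, 95% interval -1.59 to -1.03, adjusted p = 0.0036, limma). It held in every alternative tried, with log2 fold changes from -1.48 to -1.25. The study displayed Ccl22 in a heatmap of genes selected from these libraries, so this direction is not independent evidence. With the gene-length trend removed, the LPS + G-CDs libraries lay 1.41, 1.59 and 1.44 below the LPS mean on the log2 scale, in replicates 1, 2 and 3. Among 4 dendritic cell markers, Xcr1 moved in the same directions, with means of 0.0512 FPKM in control, 0.667 with LPS and 0.430 when G-CDs were added. Zbtb46 gave 0.0939, 0.0779 and 0.108 FPKM in the same order, and Flt3 and Clec9a had group means under 0.03, on at most 4 reads per group. The summed level of the 4 was 0.0788 to 0.234 FPKM in control, 0.749 to 0.799 in LPS and 0.397 to 0.672 in LPS + G-CDs libraries. None of the 4 was at 0 in all libraries, none reached 1 FPKM, and their part in the result was not tested.

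Ccl17, the neighbour of Ccl22 and its partner ligand for Ccr4, was named with the list of other CC ligands. It averaged 0.334 FPKM in control, 7.62 ± 1.79 with LPS and 2.73 ± 1.69 when G-CDs were added (SD, n = 3). LPS raised it (log2 fold change 2.70, adjusted p = 0.00044, limma), although it too was tested only because it reached 1 FPKM in cells given LPS. With G-CDs every library lay below every LPS library, and the fitted change was -1.31 (95% interval -2.10 to -0.51), but it did not pass the threshold (adjusted p = 0.2, limma). After removal of the length trend the estimate was -1.46 (adjusted p = 0.11, limma).

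Ccl2 and Ccl7 gave lower means with G-CDs without passing the adjusted threshold. Ccl2 was at 18.6, 28.1 and 34.1 FPKM, each below the lowest LPS library at 39.5, and its mean was 62.9% of that in LPS cells. The log2 fold change was -0.69 (95% interval -1.13 to -0.25, adjusted p = 0.21, limma). Removing the gene-length trend brought it past the threshold (-0.89, adjusted p = 0.025, limma), a setting added after the data had been seen, and leaving out LPS + G-CDs replicate 1 reduced it to -0.45. Ccl7 stood at 1.04, 0.601 and 1.69 FPKM, on 12, 8 and 19 reads, and the highest of these lay above the lowest LPS library. Its log2 fold change was -0.53 (95% interval -1.01 to -0.04, adjusted p = 0.32, limma), and -0.34 without LPS + G-CDs replicate 2. With the gene-length trend removed, the estimate for Ccl7 was -0.72 (adjusted p = 0.17, limma). Without overlap, Ccl6 was lower with G-CDs than with LPS alone, but on 3, 8 and 3 reads against 9, 11 and 12.

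Ccl3, Ccl4, Ccl5 and Ccl9 did not pass the test, and their LPS + G-CDs libraries overlapped the LPS libraries. The log2 fold changes were 0.20 for Ccl3 (95% interval -0.68 to 1.07, adjusted p = 0.76, limma) and 0.48 for Ccl4 (95% interval -0.12 to 1.07, adjusted p = 0.35, limma). Ccl5 gave 0.43 (95% interval -0.10 to 0.97, adjusted p = 0.35, limma) and Ccl9 gave -0.24 (95% interval -0.64 to 0.15, adjusted p = 0.43, limma). LPS + G-CDs replicate 3 held the highest LPS + G-CDs value of each of the 7 tested genes, Ccl9 and Ccl22 included, and had the largest FPKM sum over all genes (472870.3). Without that library the fitted change was 0.07 for Ccl3, 0.21 for Ccl4, 0.14 for Ccl5 and -0.36 for Ccl9. Without LPS + G-CDs replicate 1 it was 0.34, 0.72, 0.63 and -0.13, in the same order. Once the gene-length trend was removed, the 3 LPS + G-CDs libraries of Ccl3 lay within 0.075 of the LPS mean on the log2 scale, while those of Ccl4 lay 0.042, 0.286 and 0.56 above it. Those of Ccl5 lay 0.082, 0.077 and 0.521 above the LPS mean, with an estimate of 0.23 (adjusted p = 0.4, limma).

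The overlap between groups in Ccl9 depended on the scaling. After each library was rescaled to a common FPKM sum, Ccl9 stood at 458.6, 474 and 448.6 in the LPS libraries and at 349.7, 348.9 and 340.04 in the LPS + G-CDs libraries, and the groups no longer overlapped. The log2 fold change was then -0.41 (95% interval -0.67 to -0.15), against a median of -0.116 over all tested genes, and did not pass the threshold (adjusted p = 0.28, limma). On that scale Ccl22 gave -1.48 (adjusted p = 0.00061, limma) and Ccl2 gave -0.85 (adjusted p = 0.053, limma).

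**Figure D2:**
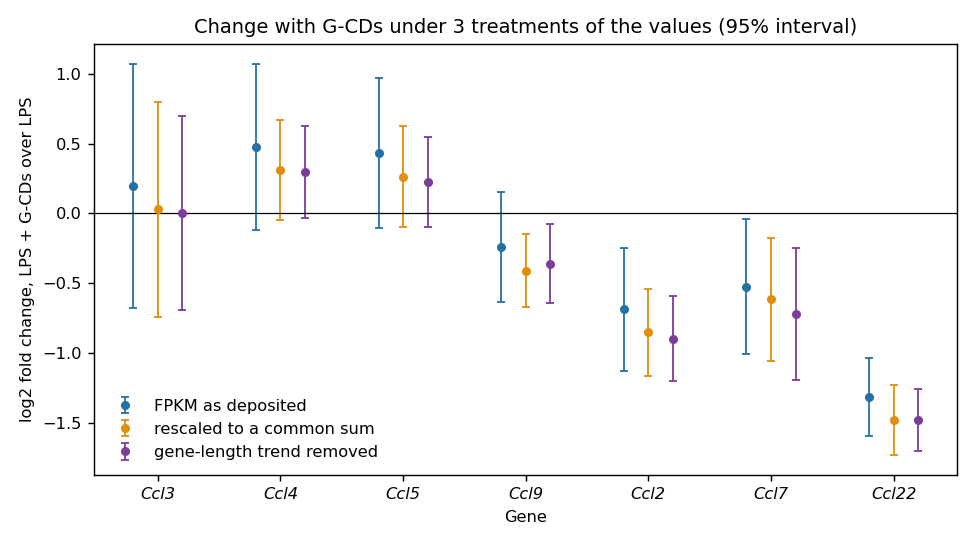
Log2 fold change of each tested chemokine gene, LPS + G-CDs over LPS, as the limma estimate with its 95% interval for FPKM as deposited, after rescaling libraries to a common sum, and with the gene-length trend removed. Ccl22 (-1.31, -1.48 and -1.48) lies farthest below 0 each time, the intervals of Ccl3, Ccl4 and Ccl5 include 0 each time, and that of Ccl9 includes 0 only for FPKM as deposited.

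Ratios between genes of the same library do not depend on its total. Ccl22 relative to Ccl9 was 0.267, 0.259 and 0.266 in the LPS libraries and 0.134, 0.116 and 0.123 in the LPS + G-CDs libraries, without overlap. The mean ratio with G-CDs was 0.47 times that with LPS. Ccl9 relative to Ccl3 was also lower without overlap, at 0.0454, 0.04 and 0.0415 against 0.0327, 0.0298 and 0.031, or 0.737 times. Ccl2 relative to Ccl9 was lower without overlap as well, at 0.727 times. By contrast, Ccl4 relative to Ccl3 overlapped between the groups, at 0.29, 0.25 and 0.263 against 0.282, 0.306 and 0.394, as did Ccl5 relative to Ccl3. The ratios carry no correction for gene length. With the length trend removed, Ccl9 lay 0.46, 0.385 and 0.238 and Ccl2 lay 1.11, 0.769 and 0.804 below the LPS mean on the log2 scale in replicates 1, 2 and 3. No test was run on these ratios, and 3 libraries against 3 could not give an exact permutation p below 0.1.

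**Figure D3:**
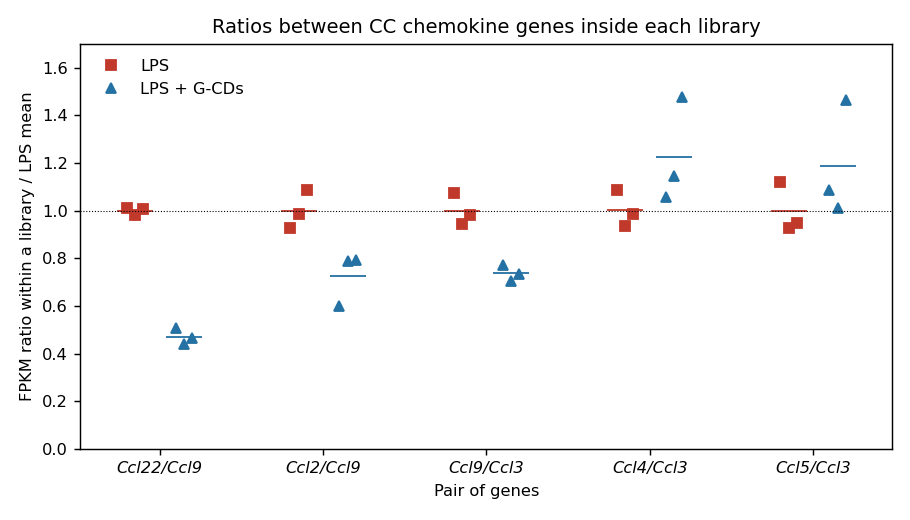
Ratio of the FPKM of 2 chemokine genes within a library, divided by the mean ratio of the LPS libraries, with each point a library, a line at each group mean and a dotted line at 1. For Ccl22 to Ccl9 the mean with G-CDs lies at 0.47, for Ccl2 to Ccl9 at 0.727 and for Ccl9 to Ccl3 at 0.737, while the points of Ccl4 to Ccl3 and Ccl5 to Ccl3 overlap between the groups.

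Of the summed FPKM of the 8 genes, Ccl3 made up 70.8%, 73.9% and 72.9% in the LPS libraries and 72.5%, 71.6% and 66.2% with G-CDs. Ccl4 held 18.4% to 20.5% with LPS and 20.4% to 26.1% with G-CDs, and Ccl22 held 0.766% to 0.859% with LPS and 0.247% to 0.317% with G-CDs, without overlap. In control cells the largest shares were those of Ccl3, at 35.4%, 57.2% and 53.0%, and of Ccl9, at 36.2%, 23.4% and 26.1%. The sum was 59.4, 99.7 and 117 FPKM in control, 14392, 16262 and 14973 FPKM with LPS, and 14244, 18116 and 22757 FPKM with LPS + G-CDs. The 8 genes took 1.12% to 1.27% of all reads on genes with LPS, against 0.0103% to 0.0176% in control cells.

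Against untreated cells, LPS + G-CDs kept the 7 tested genes higher, against 12.8% higher and 12.4% lower among all tested genes. Of these 7, Ccl2, Ccl5, Ccl7 and Ccl22 were tested only because they reached 1 FPKM in cells given LPS. The count is therefore no support for levels above control. After rescaling to a common FPKM sum the higher share of the calls was 18.8%, against 50.8% as deposited. This comparison shares libraries with the others, so its values stand beside them and are not independent. The log2 fold changes (limma) were 8.19 for Ccl3, 7.66 for Ccl4, 9.16 for Ccl5, 3.93 for Ccl9, 5.35 for Ccl22 and 4.67 for Ccl2. Ccl7 gave 1.04 (adjusted p = 0.0068, limma) on this scale, which compresses low genes, and was at least 15.4-fold higher than the floor of 3 reads over the control group. Ccl6 overlapped with control.

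Of the 13 other CC ligand genes listed, 2 were tested: Ccl17, given above, and Ccl25, a thymic and intestinal chemokine, which was not called with LPS (log2 fold change 0.10, adjusted p = 0.58, limma). The Ccl1, Ccl8 and Ccl11 genes beside Ccl2 and Ccl7 were at 0 in every library, and Ccl12 reached at most 2.12 FPKM. Of 15 CC receptor genes, 2 were tested. Ccrl2, a receptor-like chemerin-binding protein, rose with LPS (log2 fold change 4.23, SE 0.14, adjusted p = 7.1e-08, limma), having likewise been tested only because of its level in cells given LPS, and with G-CDs against LPS gave -0.03 (95% interval -0.34 to 0.28). Ccr10 was not called in either comparison. Ccr1, Ccr2 and Ccr4, which encode receptors named above, remained under 1 FPKM in every library.

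Genes of LPS sensing and of the transcription factors that act on chemokine promoters were compared as a further list, of which 26 of 27 genes were tested. With LPS, 17 rose and 1 fell, against 15.8% higher and 15.6% lower among all tested genes, and 8 were not called. Irf7 rose most (log2 fold change 4.25), followed by Fosl1 (2.85), Junb (2.79), Rel (2.60), Nfkb1 (2.57) and Nfkb2 (2.47), which encode interferon regulatory, AP-1 and NF-κB factors. Tlr4, the LPS receptor gene itself, fell by 0.81 (adjusted p = 0.024, limma), a call lost in 5 of its 18 alternatives, with adjusted p from 0.0076 to 0.079. With G-CDs against LPS, limma called 0 of the 26 genes, 8 had an unadjusted p under 0.05, against 15.2% of all tested genes, and the median log2 fold change was 0.014 against 0.017 for all tested genes. Of those 8 genes, 6 had negative log2 fold changes, Rel (-0.80), Fos (-0.66), Tirap (-0.66), Nfkb1 (-0.48), Irf8 (-0.44) and Nfkb2 (-0.34), and 2 had positive ones, Irf3 (0.55) and Irf1 (0.45). Their adjusted p ranged from 0.094 for Fos to 0.32 for Tirap (limma).

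**Figure D4:**
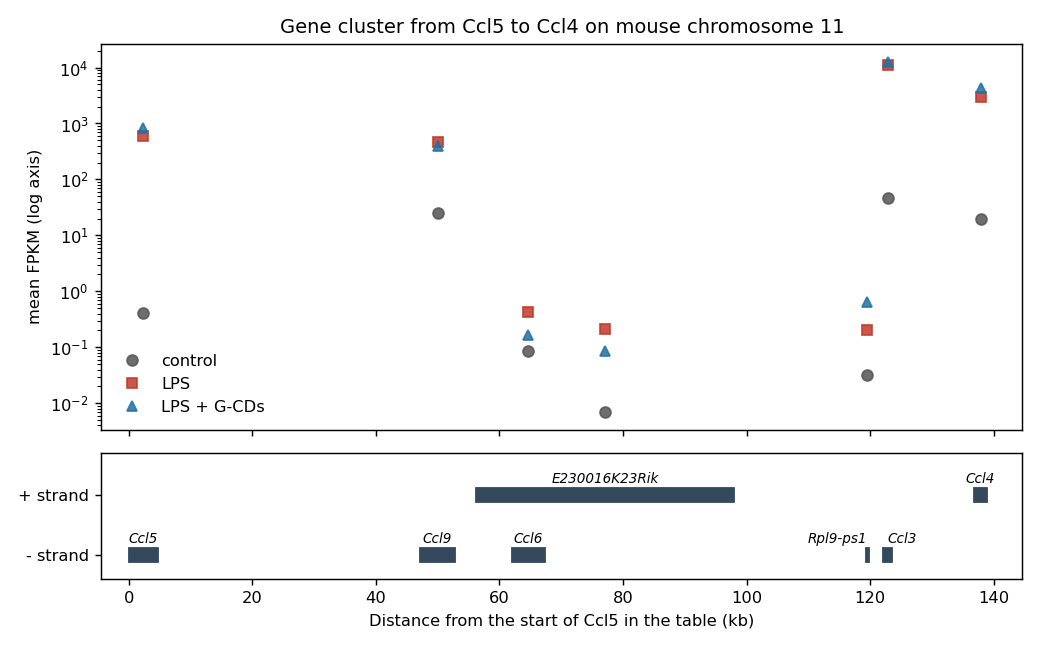
Mean FPKM (log axis) of the genes of the chromosome 11 group from Ccl5 to Ccl4 in the 3 treatments, above a map to scale of the genes by strand, with distance in kb from the lower end of Ccl5. Ccl5, Ccl9, Ccl6, Ccl3 and Ccl4 lie within 139 kb and, apart from Ccl6, are above 100 FPKM with LPS.

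Neighbouring genes differed in level. In the 139 kb group, Ccl6 lies between Ccl9 and Ccl3 and was the only one of the 5 under 1 FPKM in LPS libraries. The non-member genes there, E230016K23Rik, which overlaps Ccl6 on the opposite strand, and Rpl9-ps1, reached at most 0.318 and 0.961 FPKM. Whether counting used strand is not given in the sources used here, so reads of Ccl6 and E230016K23Rik may not be told apart where they overlap. Gm17268, which overlaps Ccl2, was at 0 in every library, and Cx3cl1, between Ccl22 and Ccl17, reached at most 0.203 FPKM. Of the 50-base words of each member, the share also found in another gene was 0.0% for every member but Ccl9, at 2.0%.

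As a description, the tested gene outside the members whose log2 level over the 9 libraries lay closest to each was named. It was Tnf for Ccl3 (Pearson r 0.9994), Gstt4 for Ccl4 (0.9995), Traf1 for Ccl5 (0.9992), Nfkbia for Ccl9 (0.9993), Ptges for Ccl2 (0.9985) and Myc for Ccl22 (0.9987). Ccl7 was closest to Wfdc17, at 0.9753. The 9 points fall into 3 groups, so a gene induced by LPS correlates highly with most members, and apart from Ccl7, 67 to 120 tested genes had r over 0.99 with each. Myc stood at 0.0773 FPKM in control, 34.4 ± 1.46 in LPS and 18.8 ± 2.39 in LPS + G-CDs cells. Values after ± are SDs over 3 libraries. Tnf, the gene of tumour necrosis factor, stood at 2512 FPKM with LPS and 2622 with G-CDs.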

How the data were processed

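RNA-seq libraries of RAW264.7 cells (3 groups of 3) were read from the deposited table of FPKM values, which the authors computed per gene from sequencing reads, that is, reads scaled to gene length and to a library size that was 0.88 to 1.14 times the reads on genes, set in a way not given in the sources used here. The submitters' processing notes name GRCm38 (mm10). The aligner and the counter are not given in the sources used here. FPKM times gene length gave whole reads within 0.05 reads for 100.0% of values, and library totals were taken from these. The groups follow the labels and 0 columns of other samples were found. Genes with 1 FPKM or more in at least 3 libraries were tested with limma 3.58.1 in R 4.3.3 (linear model over all 9 libraries, empirical Bayes with trend) on log2(FPKM + 1), a scale that understates the change of low genes. Adjusted p-values are Benjamini-Hochberg over 11585 genes with a threshold of 0.05. The 95% intervals of fold changes are from limma. Floors of 3 reads and the 95% interval of a read ratio cover counting error only and were computed in Python 3.11.15 with pandas 2.3.3 and scipy 1.17.1. The fit was tested on simulated data. Precision is limited by 3 libraries per group.

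The chemokine genes and the gene lists were chosen with earlier results of these data known. The genes named were the 8 chemokine genes, at most 6 called genes of each list by size of change, and for each chemokine gene the tested gene with the highest correlation. Exceptions chosen after their values were seen are the neighbouring genes and Tlr4, Ccl25, Ccr10 and other listed genes that were not called. Replicate numbers are shared across groups. Control and LPS libraries of one number deviated from their group means with correlations of 0.103, 0.137 and 0.113. LPS and LPS + G-CDs libraries gave 0.095, 0.08 and 0.143, and control and LPS + G-CDs libraries gave 0.28, 0.057 and 0.653. These values do not settle whether the numbers mark pairs. The reported fit was unpaired, and replicate number as a block was one of the alternatives. No library pair was alike within counting noise. Of 19 alternatives tried, 1 was added after seeing the data.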

Additional observations from a re-analysis of the deposited data

How the results depend on the processing

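The counts of called chemokine genes held under the alternatives. With LPS against control, 6 to 7 genes were called, 6 only under a filter of 5 FPKM, at which Ccl7 was not tested. With G-CDs against LPS, 1 gene (Ccl22) was called except once the gene-length trend was removed, a setting added after seeing the data, when 2 were (Ccl2, log2 fold change -0.89). Ccl22 kept an adjusted p of 0.00024 to 0.036 in all 19 alternatives. Ccl2 ranged from -0.89 to -0.45 with an adjusted p of 0.025 to 0.58. Leaving out each library in turn gave 1 to 1 called chemokine gene with G-CDs and 7 to 7 with LPS. With the replicate block, 7, 1 and 7 chemokine genes were called in the 3 comparisons and no call changed, and the count over all genes was 53 for G-CDs against LPS.

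The count over all genes was less stable. For G-CDs against LPS, 57 genes were called as reported, 25 with a pseudocount of 0.1, 25 with only the 6 libraries of the comparison, 37 after rescaling to a common FPKM sum and 86 with the gene-length trend removed, and leaving out a library moved it from 11 (LPS + G-CDs replicate 2) to 256 (LPS + G-CDs replicate 1). It was 29 without LPS + G-CDs replicate 3, 14, 12 and 21 without LPS replicates 1, 2 and 3, and 23 without control replicate 2. The split by direction moved as well, from 29 higher and 28 lower as reported. It was 106 and 150 without LPS + G-CDs replicate 1, and 18 and 7 with a pseudocount of 0.1. For G-CDs against control the count moved from 1789 to 4010 around 2927, and for LPS against control from 2478 to 4365 around 3630. The near-zero change of Ccrl2 turned sign, with a range of -0.17 to 0.067 when a library was left out (0.067 without LPS + G-CDs replicate 1 and 0.01 without replicate 2). The cause was not tested. The 3 libraries per group limit which changes of Ccl2 to Ccl9 could be resolved, and 0 to 30 reads limit Ccl6 and Ccl7.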
